A study of Rattus norvegicus with 20 samples.

Results

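Oligodendrocyte precursor and lineage genes were examined in the medial prefrontal cortex (mPFC) of rats treated with lysergic acid diethylamide (LSD) or saline. The 7 genes are *Pdgfra*, *Cspg4*, *Olig1*, *Olig2*, *Sox10*, *Gpr17* and *Enpp6*, taken by symbol from the 31038 genes of the deposited count matrix. All 7 passed the filter on low counts, as did 16605 genes in all. The data are bulk poly(A) RNA-seq from male Sprague-Dawley rats that were 6 to 8 weeks old when treatment began. Over 90 days, 10 rats were injected intraperitoneally on alternate days with LSD (0.16 mg/kg), and 10 others with sterile saline. Treatment then ceased for 3 weeks before the tissue was taken, so the comparison concerns differences that outlast the drug (the study's methods give a slightly longer interval and an older starting age). Each rat gave 1 library, with 16346629 to 25552681 reads on genes in the LSD group and 11098076 to 24201351 in the saline group. In whole tissue, fewer cells of a type and less RNA per cell cannot be told apart.

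Oligodendrocyte precursor cells, also called NG2 glia, persist in the adult cortex, where they divide and give rise to the oligodendrocytes that wrap axons in myelin. Signalling by platelet-derived growth factor (PDGF) through PDGFRA keeps them dividing. SOX10, OLIG1 and OLIG2 are present throughout the lineage, and cells that commit to differentiation pass through a stage marked by GPR17 and then by ENPP6 before they make myelin. *Pdgfra* and *Cspg4* therefore mark the start of this sequence, *Gpr17* and *Enpp6* its middle, and *Sox10* is carried on into myelinating cells, where it drives myelin genes.

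Of the 7 genes, *Sox10* and *Olig1* were lower in LSD-treated rats, and none was higher. The remaining 5 did not pass the threshold, an adjusted p-value under 0.05 in the quasi-likelihood test of edgeR, adjusted by Benjamini-Hochberg over all genes tested. By the same rule, 15.0% of all genes tested passed, 8.54% as lower and 6.48% as higher in LSD. Lower genes made up 56.9% of these calls, 36.3% with scaling by library totals alone and 46.5% with no low-count filter. The median log2 fold change of the 7 genes was -0.16, beside 0.00 for all genes tested. Values are given as normalised RPM, which is each gene's reads relative to the library total after TMM scaling (SE is the standard error of a log2 fold change). Levels are compared between groups only and not between genes, since transcript lengths were not used.

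**Figure D1:**
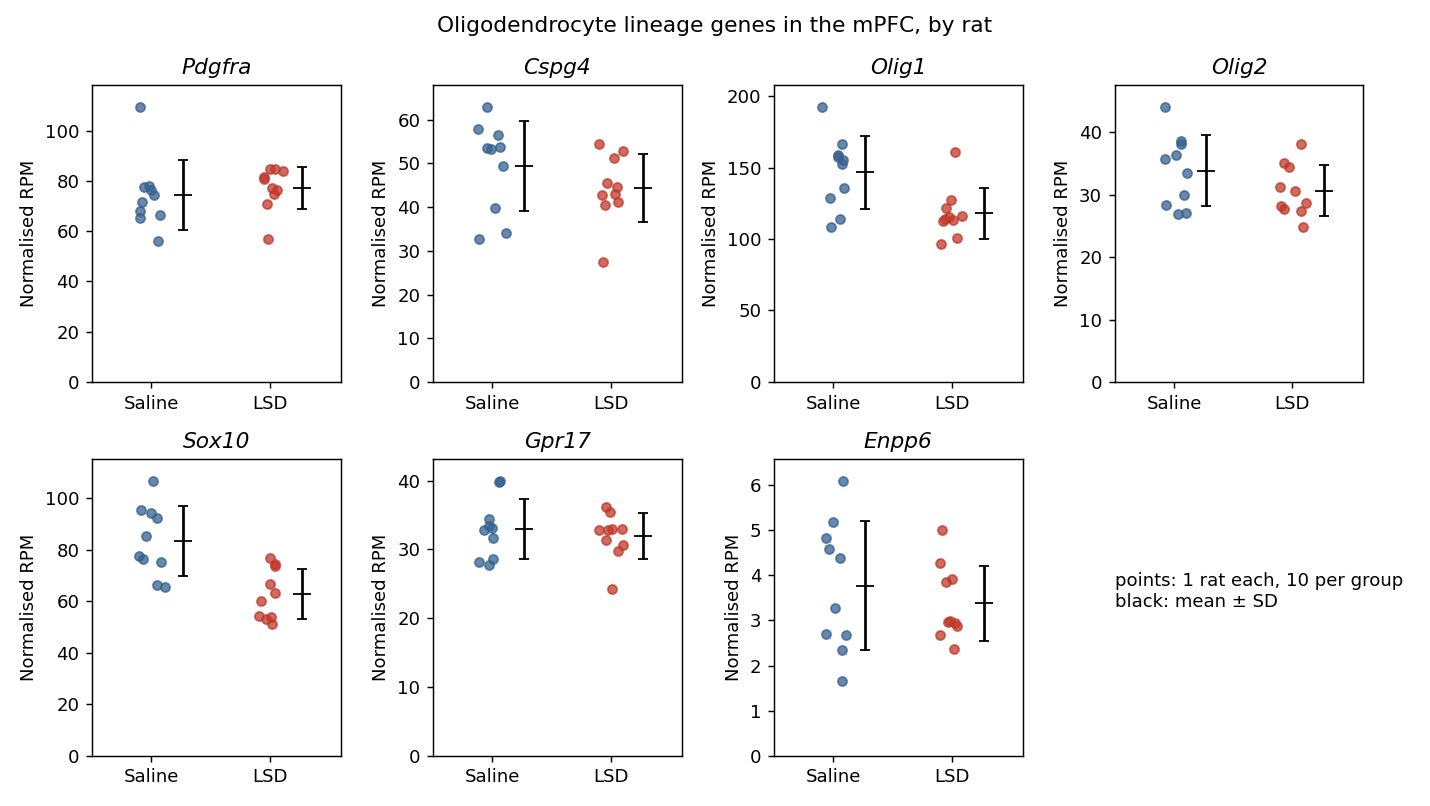
Normalised RPM (y axis, from 0) of each of the 7 lineage genes in saline-treated and LSD-treated rats. Each point is 1 rat of 10 per group, and black bars give the mean ± SD. All 10 LSD-treated rats lie below the saline median for *Sox10*, whereas the groups overlap broadly for *Pdgfra* and *Gpr17*.

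*Sox10* encodes the SRY-box factor that is needed for oligodendrocyte differentiation. The LSD-treated rats lay between 51.0 and 76.8 normalised RPM, with a median of 61.6. Controls lay between 65.6 and 107, with a median of 81.6. All 10 LSD-treated rats were below the saline median, 6 of them were below every control, and 6 controls were above every LSD-treated rat. The means were 62.8 ± 9.77 normalised RPM (SD, n = 10) in LSD and 83.6 ± 13.6 (SD, n = 10) in saline, from 708 to 2146 reads per rat. The log2 fold change was -0.41 (SE 0.095, adjusted p = 0.00888 from edgeR), and the level fell by 25%. With 1 rat left out at a time, it lay between -0.45 and -0.37 and passed in all 20 repeats (adjusted p from 0.00543 to 0.02).

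*Olig1* encodes a basic helix-loop-helix factor of the oligodendrocyte lineage. The LSD group ran from 96.8 to 161 normalised RPM around a median of 115.0, and the saline group from 108 to 192.5 around 153.9. The groups overlapped more than for *Sox10*, with 9 LSD-treated rats below the saline median but only 2 below every control. The means were 118 ± 17.6 (SD, n = 10) and 147 ± 25.5 (SD, n = 10), and the log2 fold change was -0.32 (SE 0.095, adjusted p = 0.0285 from edgeR). The highest LSD value, 161 in rat 9, stood well above the next one, 127. With 1 rat left out at a time the log2 fold change of *Olig1* lay between -0.37 and -0.27, and the call was lost in 4 of 20 repeats, without LSD rats 2, 3 or 8 or saline rat 1 (adjusted p up to 0.054). It was also lost when libraries were scaled by their totals alone (-0.27, adjusted p = 0.0561) or with no low-count filter (-0.30, adjusted p = 0.0518, from edgeR).

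*Olig2* encodes the paralogue of OLIG1, and the RefSeq annotation of GRCr8 places both on chromosome 11, 35489 bases apart with no protein-coding gene between them. *Olig2* ran from 24.8 to 38.1 normalised RPM in LSD (median 29.6) and from 26.97 to 44.1 in saline (median 34.6). The ranges overlapped over most of their length. The log2 fold change was -0.15 (SE 0.092, adjusted p = 0.288 from edgeR), with a 95% interval from -0.34 to 0.04.

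*Pdgfra*, the PDGF receptor that defines precursors, lay between 56.8 and 84.7 normalised RPM in the LSD group, with a median of 79.0, and between 56.2 and 109 in the saline group, with a median of 73.0. Its log2 fold change of 0.05 (SE 0.090, adjusted p = 0.745 from edgeR) had a 95% interval from -0.14 to 0.24. A decrease of the size fitted for *Sox10* lies outside this interval. The interval is for *Pdgfra* of the whole tissue, in which precursors are not its only source. *Cspg4* encodes the NG2 proteoglycan, which precursors share with pericytes. It ran from 27.4 to 54.5 in LSD (median 43.8) and from 32.8 to 62.9 in saline (median 53.5), and 9 of the 10 LSD-treated rats were below the saline median. Its log2 fold change was -0.16 (SE 0.12, adjusted p = 0.405 from edgeR), with a wide interval from -0.41 to 0.10.

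*Gpr17* encodes a G protein-coupled receptor of committed precursors. It ran from 24.3 to 36.2 normalised RPM in LSD (median 32.9) and from 27.7 to 39.98 in saline (median 32.9), so the medians of the groups met. The log2 fold change was -0.05 (SE 0.075, adjusted p = 0.730 from edgeR), with a 95% interval from -0.20 to 0.11. *Enpp6* encodes a choline phosphodiesterase of newly forming oligodendrocytes and was the least precisely measured of the 7, with 18 to 153 reads per rat. It ran from 2.37 to 5.003 normalised RPM in LSD (median 2.98) and from 1.67 to 6.10 in saline (median 3.83). The coefficient of variation was 24.5% in LSD and 38.1% in saline, the highest of the 7 genes in both groups. The log2 fold change of -0.18 (SE 0.19, adjusted p = 0.572 from edgeR) came with an interval from -0.58 to 0.22.

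Genes that pass and miss a threshold are not thereby shown to differ from each other, so the reads of each pair of genes were also compared within each rat. The log2 ratio of the reads of 2 genes in 1 library does not depend on how libraries are scaled. This comparison, over all 21 pairs, was chosen after the values were seen. It used an exact two-sided permutation test over the 184756 splits of the rats, with Benjamini-Hochberg adjustment over the 21 pairs. Adjusted p-values under 0.05 were reached by 3 pairs, and *Sox10* was in each of them. The number of such pairs was 6 with the replicate number as a block, 1 without saline rats 8 and 9, 5 without LSD rat 9 or without saline rat 10, and 2 or 3 with any other rat left out.

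The log2 ratio of *Sox10* to *Gpr17* was 0.97 ± 0.19 (SD, n = 10) in LSD and 1.34 ± 0.19 (SD, n = 10) in saline. It ran from 0.69 to 1.22 in LSD-treated rats and from 1.18 to 1.74 in controls, so that the ranges barely overlapped and all 10 LSD-treated rats were below the saline median. The difference was -0.37 (SE 0.086, exact permutation p = 0.000108, adjusted p = 0.00227). The spans of *Sox10* and *Gpr17* on GRCr8 are 9377 and 6922 bases from start to end. The log2 ratio of *Olig2* to *Sox10* was -1.03 ± 0.18 (SD, n = 10) in LSD and -1.30 ± 0.14 (SD, n = 10) in saline, higher by 0.27 in LSD (SE 0.072, exact permutation p = 0.00169, adjusted p = 0.0177). All 10 LSD-treated rats were above the saline median. The log2 ratio of *Pdgfra* to *Sox10* was 0.30 ± 0.25 (SD, n = 10) in LSD and -0.17 ± 0.40 (SD, n = 10) in saline, and the difference of 0.48 (SE 0.15) passed less clearly (exact permutation p = 0.00567, adjusted p = 0.0397). *Sox10* thus fell relative to *Pdgfra*, *Gpr17* and *Olig2*, but its ratios with the other 2 marker genes did not pass. The ratio of *Cspg4* to *Sox10* was higher by 0.26 in LSD (exact permutation p = 0.119, adjusted p = 0.277). That of *Sox10* to *Enpp6* was lower by 0.32 (exact permutation p = 0.0969, adjusted p = 0.254). Without saline rats 8 and 9, an alternative taken up again with the striatal markers, the *Olig2* to *Sox10* difference was 0.26 (exact permutation, adjusted p = 0.0561) and the *Pdgfra* to *Sox10* difference 0.36 (adjusted p = 0.155). The latter also missed the threshold with gene span offsets, at 0.35 (adjusted p = 0.0869), and in 11 of the 20 repeats that left out 1 rat each.

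**Figure D2:**
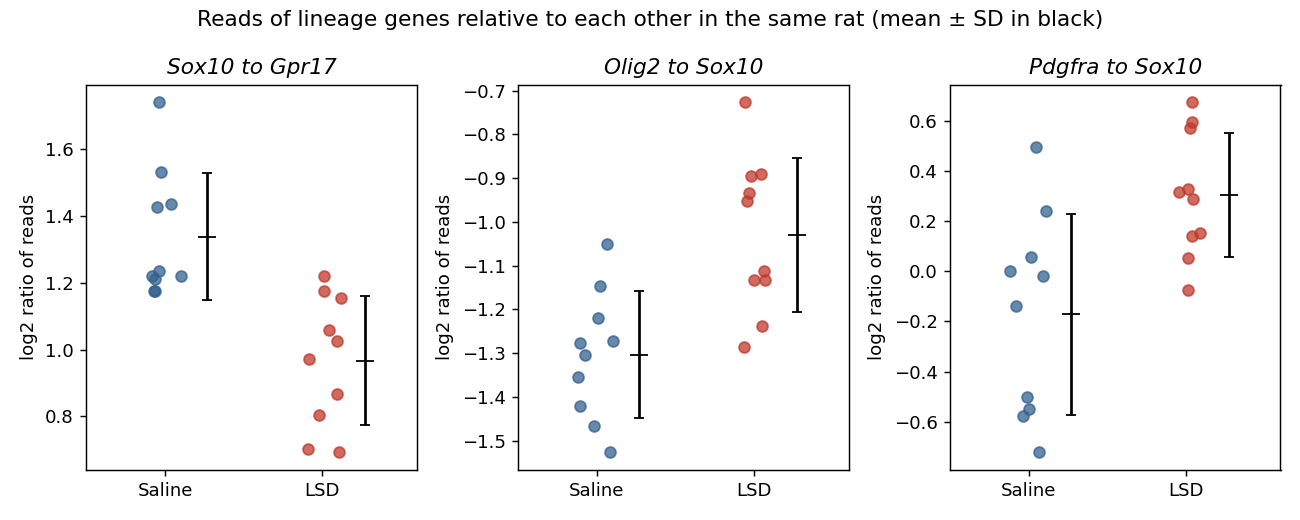
Log2 ratio of the reads of 2 lineage genes in the same library (y axis, not starting at 0) in saline-treated and LSD-treated rats, for the 3 pairs with an adjusted p under 0.05. Points are rats, 10 per group, with mean ± SD in black. For *Sox10* to *Gpr17* the controls lie from 1.18 to 1.74 and the LSD-treated rats from 0.69 to 1.22.

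*Olig1* and *Sox10* did not part in this way. Their log2 ratio was 0.91 ± 0.14 (SD, n = 10) in LSD and 0.81 ± 0.09 (SD, n = 10) in saline, a difference of 0.10 (SE 0.053, exact permutation p = 0.072, adjusted p = 0.216). The ratios of *Olig1* to *Gpr17* (difference -0.27, exact permutation p = 0.0139, adjusted p = 0.073) and to *Olig2* (difference -0.17, exact permutation p = 0.0199, adjusted p = 0.0785) missed the threshold after adjustment. The ratio of *Pdgfra* to *Olig1* was higher by 0.37 in LSD, and it missed the threshold as well (exact permutation p = 0.0224, adjusted p = 0.0785). So did those of *Cspg4* to *Olig1* (difference 0.16, exact permutation p = 0.342, adjusted p = 0.502) and *Olig1* to *Enpp6* (-0.22, exact permutation p = 0.225, adjusted p = 0.388). Ratios among *Pdgfra*, *Cspg4*, *Olig2*, *Gpr17* and *Enpp6* gave exact permutation p-values from 0.175 to 0.947, and adjusted ones from 0.36 to 0.947.

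The promoters of *Olig2* and *Pdgfra*, the partners of *Sox10* in 2 of these pairs, are shown because OLIG factors bind E-box sequences and SOX factors bind sequences with an ACAA core. They are the 250 bases before the gene start in RefSeq's annotation of GRCr8, 5′ to 3′ on the gene's strand. Capitals mark matches to the E-box CANNTG or to ACAANG on either strand, which do not overlap each other here.
Pdgfra, chr14:33408517-33408766, minus strand: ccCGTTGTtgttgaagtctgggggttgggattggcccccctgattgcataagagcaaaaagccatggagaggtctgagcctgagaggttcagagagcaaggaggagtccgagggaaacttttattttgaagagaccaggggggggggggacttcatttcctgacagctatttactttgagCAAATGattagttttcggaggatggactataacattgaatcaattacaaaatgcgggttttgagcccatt
Olig2, chr11:43961335-43961584, plus strand: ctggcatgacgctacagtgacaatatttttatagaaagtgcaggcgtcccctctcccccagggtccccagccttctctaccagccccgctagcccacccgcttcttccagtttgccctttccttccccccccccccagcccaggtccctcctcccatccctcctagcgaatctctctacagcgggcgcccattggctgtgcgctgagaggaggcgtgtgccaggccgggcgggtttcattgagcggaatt
The *Pdgfra* window holds 1 match to CANNTG and 1 to ACAANG, and the *Olig2* window holds none of either. The window of *Gpr17*, the partner in the pair with the smallest p-value, is not printed. It holds 0 matches to CANNTG and 1 to ACAANG. Among 33469 windows of the same length, 65.5% hold CANNTG and 36.9% hold ACAANG. The windows also differ in base composition, with 47.2% G and C for *Pdgfra* and 62.0% for *Olig2*. Promoter windows were matched for 5 of the 7 genes, and *Sox10* and *Olig1* were without one.

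Among rats of the same group, the 3 transcription factor genes varied together, and *Pdgfra* varied apart from them. Correlations were taken over the 20 rats after centring log2(normalised RPM + 1) within each group, with permutation p-values from 100000 resamples within groups, adjusted over the 21 pairs. *Olig1* and *Sox10* were the closest pair (Pearson's r = 0.87, Spearman's rho = 0.89, permutation p = 1e-05 for both, the smallest these resamples can give, and adjusted p = 0.00021). Within the groups, r was 0.78 in LSD and 0.94 in saline, and without the 2 rats farthest from the median it was 0.82. These 2 rats were chosen in each pair by the gene named first, and not by the other gene. *Olig1* and *Olig2* had r = 0.78 and rho = 0.80 (permutation p = 0.00014 and 0.0001, adjusted p = 0.00147 and 0.00105), and r = 0.72 without the 2 farthest rats. *Olig2* and *Sox10* had r = 0.74 and rho = 0.70 (permutation p = 0.00064 and 0.00119, adjusted p = 0.00448 and 0.00833), and r was again 0.74 without the 2 farthest rats. Adjusted p-values of r were under 0.05 for 6 of the 21 pairs, the other three being *Sox10* with *Gpr17* (r = 0.58, rho = 0.60), *Olig2* with *Gpr17* (r = 0.60, rho = 0.55) and *Olig1* with *Enpp6* (r = 0.60, rho = 0.47), each with an adjusted permutation p of 0.037 for r. Their adjusted permutation p-values for rho were 0.0304, 0.053 and 0.13, and r fell to 0.44, 0.45 and 0.51 without the 2 farthest rats.

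For *Pdgfra*, r ran from -0.16 to 0.21 against the other members (adjusted permutation p from 0.639 to 0.831). *Cspg4* followed *Gpr17* by rank (r = 0.54, permutation p = 0.023, adjusted p = 0.0604, and rho = 0.64, permutation p = 0.00399, adjusted p = 0.0209) but not *Olig1* (r = 0.05, rho = 0.14, adjusted permutation p = 0.831 and 0.657). The rat with the lowest *Cspg4*, LSD rat 10 at 27.4 normalised RPM, was not low for *Pdgfra*. Its log2 ratio of *Pdgfra* to *Cspg4* was 1.56, the highest of the LSD group.

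**Figure D3:**
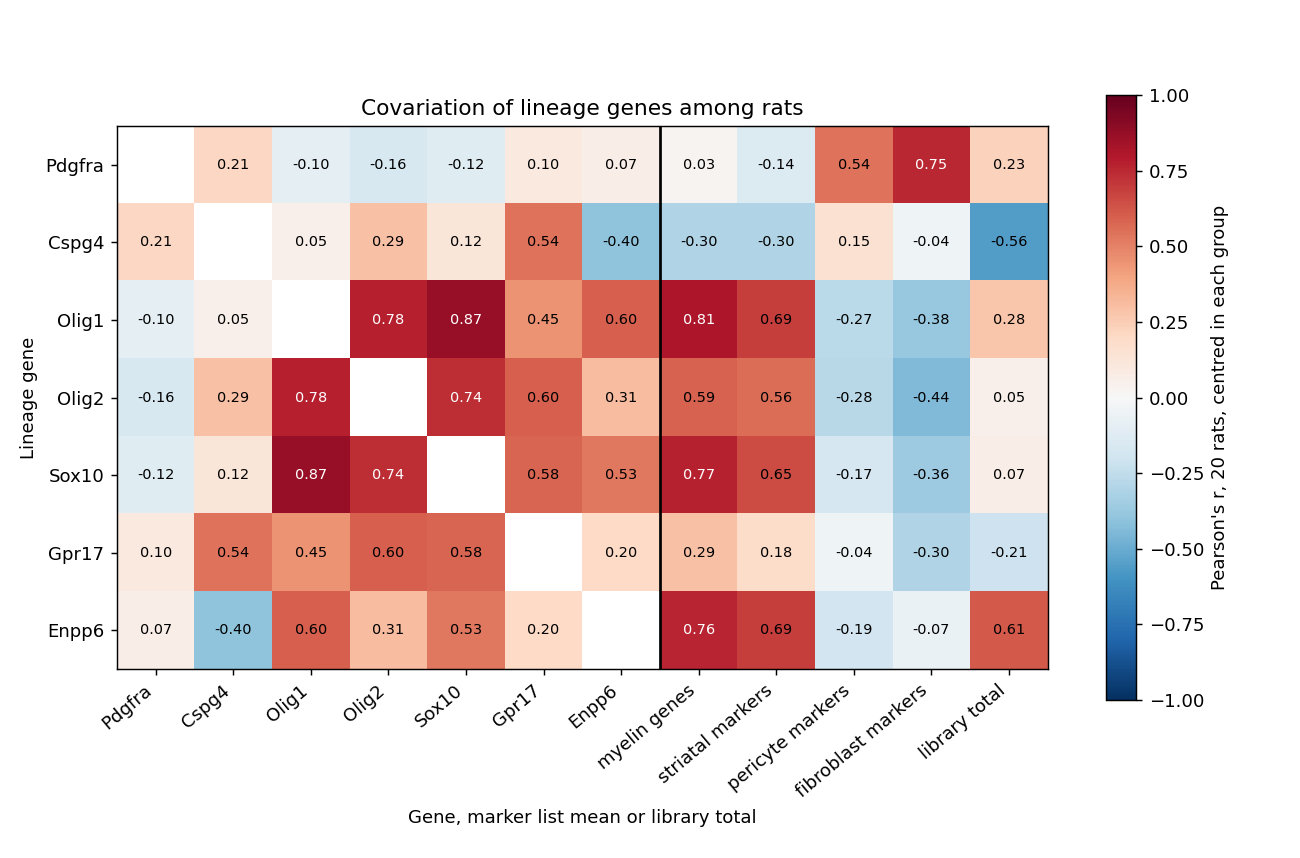
Pearson's r over 20 rats (colour and printed value) between the 7 lineage genes, and between each gene and the mean level of 4 marker lists or the library total, after centring within each group. *Olig1*, *Olig2* and *Sox10* form a block with r from 0.74 to 0.87, whereas *Pdgfra* is closest to the fibroblast and meningeal markers, with r = 0.75.

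The genes most like each member among 14317 others with a mean of at least 1 normalised RPM were also ranked, as a description over the same 20 rats. For *Olig1* they included *S1pr5*, a sphingosine-1-phosphate receptor of oligodendrocytes (r = 0.92), and *Hapln2*, a link protein of the nodes of Ranvier (r = 0.90). For *Sox10* they were *Ttyh2* (r = 0.94), *Wscd1* (r = 0.94) and *Prr18* (r = 0.93). The 50 genes most like *Olig1* held 9 of the 24 myelin genes listed below, those most like *Sox10* held 8, those most like *Enpp6* held 11 and those most like *Olig2* held 3. The 50 most like *Pdgfra*, *Cspg4* or *Gpr17* held 0. Those nearest to *Pdgfra* were *St5* (r = 0.88), the scaffold gene *Iqgap1* (r = 0.87) and *Cgnl1*, which encodes a junction protein (r = 0.87). *Cspg4* was near to *Gigyf1* (r = 0.95) and to *Idua*, a lysosomal enzyme gene (r = 0.93). *Olig2* was nearest to *Myh14* (r = 0.90), *Gna12* (r = 0.85) and the netrin receptor gene *Unc5b* (r = 0.84), *Gpr17* to *Pik3c2b* (r = 0.84), *LOC102557607* (r = 0.83) and *Atp11a* (r = 0.83), and *Enpp6* to *Spock3* (r = 0.84), *Slc45a3* (r = 0.83) and *LOC682206* (r = 0.82).

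The summed level of 9 neuron markers was 5760 to 7530 normalised RPM and that of 4 choroid plexus markers 1.38 to 12.2 over all rats. Markers of striatum, which borders the dissected cortex, and of myelin moved with some of the members. The summed level of 6 striatal markers (among them *Drd1*, *Adora2a* and *Gpr6*) ran from 103 to 204 normalised RPM in LSD-treated rats and from 113 to 310 in controls. All 6 had a negative log2 fold change, with a median of -0.71, and *Gpr6* passed the threshold. The summed level of 24 myelin and mature oligodendrocyte genes ran from 3070 to 7480 normalised RPM in LSD and from 3120 to 9690 in saline. Saline rats 8 and 9 were highest in the mean level of the striatal markers. Over the 20 rats, centred within groups, *Sox10* rose with the mean log2 level of the myelin genes (r = 0.77, rho = 0.80, permutation p = 0.00015 and 0.0001) and of the striatal markers (r = 0.65, rho = 0.63, permutation p = 0.00166 and 0.00245). With the 2 farthest rats left out, these values of r were 0.74 and 0.47. For relations with a marker list or the library total, the 2 rats were chosen by that measure, and not by the member. *Olig1* had r = 0.81 and rho = 0.79 with the myelin genes and r = 0.69 and rho = 0.55 with the striatal markers (permutation p 6e-05 and 0.00014 for the former, 0.00194 and 0.0199 for the latter), and 0.86 and 0.43 without the 2 farthest rats. *Enpp6*, which was not called, rose with the myelin genes (r = 0.76, permutation p = 0.00036) and the striatal markers (r = 0.69, permutation p = 0.00307). It also rose with the library total (r = 0.61, permutation p = 0.00819). *Olig2* rose with the myelin genes (r = 0.59, permutation p = 0.0111). These were among 35 relations of a member with a marker list or the library total, 11 of which had an adjusted permutation p of r under 0.05.

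With the striatal marker level as a covariate, an alternative chosen after the data were seen, *Sox10* was lower by 0.26 on the log2 scale (log2 fold change -0.26, standard error 0.085, adjusted p = 0.0414 from edgeR). For *Olig1* the log2 fold change was -0.16, and it did not pass (adjusted p = 0.177). With this covariate 8.80% of all genes tested were lower. Without saline rats 8 and 9, the log2 fold change of *Sox10* was -0.34 (adjusted p = 0.025) and that of *Olig1* was -0.25 (adjusted p = 0.0827), where 6.70% of genes were lower. With the mean level of the myelin genes as a covariate, *Sox10* had -0.30 (adjusted p = 0.00618) and *Olig1* -0.20 (adjusted p = 0.0294, all from edgeR), and 11.3% of genes were lower.

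The log2 fold change also rose with the span of a gene over all genes tested (Spearman's rho = 0.36 across 14929 genes, which are not independent replicates). *Olig1*, *Olig2* and *Sox10* are short, with spans of 2143, 3377 and 9377 bases, whereas *Pdgfra* spans 48578 and *Enpp6* 128233. With offsets that remove each rat's trend with span, rho was -0.01 and 6.52% of genes tested were lower. *Sox10* then changed by -0.35 on the log2 scale (adjusted p = 0.0222) and *Olig1* by -0.21 (adjusted p = 0.159, both from edgeR). *Pdgfra* moved to 0.00 (-0.0038 before rounding, adjusted p = 0.986) and *Gpr17* to 0.03 (adjusted p = 0.858).

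**Figure D4:**
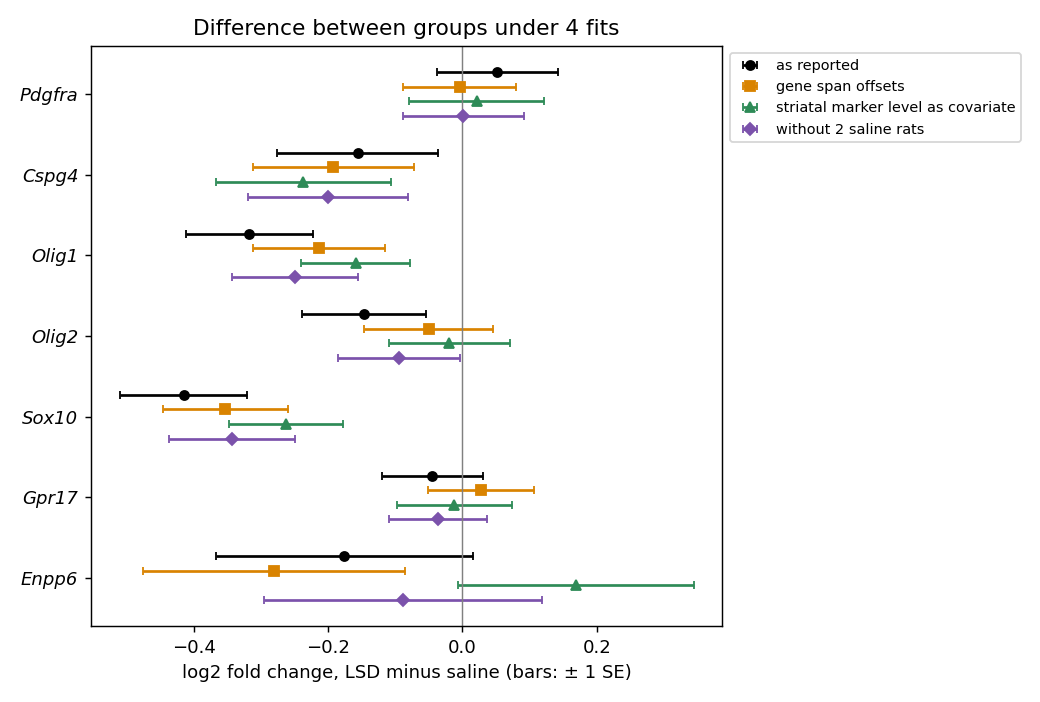
Log2 fold change of LSD minus saline (x axis, bars ± 1 standard error) for the 7 lineage genes in the comparison as reported, with offsets for gene span, with the striatal marker level as a covariate, and without saline rats 8 and 9. *Sox10* lies from -0.41 to -0.26 in the 4 fits, *Olig1* from -0.32 to -0.16 and *Pdgfra* from 0.00 to 0.05.

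*Pdgfra* and *Cspg4* are not exclusive to precursors, so markers of the other cells that carry them were measured. *Pdgfra* is also made by fibroblasts of the meninges, and it rose with the mean level of 8 fibroblast and meningeal markers (r = 0.75, rho = 0.77, permutation p = 0.00018 and 0.00021, adjusted p = 0.0021 and 0.00245, and r = 0.65 without the 2 farthest rats). Of these 8 markers, 7 had a negative log2 fold change, with a median of -0.34, and 0 passed the threshold. The part of these markers in the log2 fold change of *Pdgfra* was not tested. Their summed level ran from 81.6 to 599 normalised RPM in LSD and from 147 to 1090 in saline. Saline rat 10 was the highest control both for this sum and for *Pdgfra*. *Pdgfra* also rose with the mean level of 10 pericyte markers (r = 0.54, rho = 0.42, permutation p = 0.0132 and 0.0766, adjusted p = 0.0463 and 0.179, and r = 0.43 without the 2 farthest rats). For *Cspg4* no relation with the pericyte markers was detected (r = 0.15, rho = 0.32, permutation p = 0.531 and 0.182), and their sum ran from 154 to 226 in LSD and from 168 to 271 in saline. It was lower in larger libraries (r = -0.56, rho = -0.60 with the library total, permutation p = 0.0153 and 0.00725, adjusted p = 0.0487 and 0.0317, and r = -0.56 without the 2 farthest rats). Of the pericyte markers, 1 passed, *Kcnj8* (log2 fold change -0.45, adjusted p = 0.0188 from edgeR).

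Other genes listed for precursors moved in both directions. Whole tissue does not show which cells the reads of this list or of the next ones came from. Of 16 listed, 15 were tested, and 2 were higher and 2 lower in LSD, with a median log2 fold change of 0.00. Over all genes tested, 6.48% were higher and 8.54% lower. *Pcdh15*, a protocadherin gene, had 6.95 ± 1.13 normalised RPM (SD, n = 10) in LSD and 5.19 ± 1.07 (SD, n = 10) in saline (log2 fold change 0.43, adjusted p = 0.0226 from edgeR). *Ptprz1*, a receptor phosphatase gene, rose by 0.23 on the log2 scale (adjusted p = 0.0301), with 10 of 10 LSD-treated rats above the saline median. *C1ql1*, a secreted C1q-like protein gene, had -0.33 (adjusted p = 0.0313), and *Bcan*, which encodes the matrix proteoglycan brevican, had -0.22 (adjusted p = 0.0485, all from edgeR). The *Pcdh15* gene spans 1498824 bases and *C1ql1* 7431. With the span offsets none of the 4 passed, with adjusted p-values from edgeR of 0.0775 for *Pcdh15*, 0.200 for *Ptprz1*, 0.0959 for *C1ql1* and 0.104 for *Bcan*. In that fit *Megf11* was lower (log2 fold change -0.23, adjusted p = 0.0234), though not called without the offsets (-0.09, adjusted p = 0.323, both from edgeR). With 1 rat left out at a time, 1 to 3 of the list were higher and 0 to 3 lower.

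Among 13 tested genes of committed and newly formed oligodendrocytes, *Itpr2* was higher (log2 fold change 0.27, adjusted p = 0.0244) and *Sirt2* was lower (-0.25, adjusted p = 0.00940, both from edgeR). The shares of all genes tested were 6.48% higher and 8.54% lower. *Itpr2* encodes an inositol trisphosphate receptor, and *Sirt2* a deacetylase abundant in oligodendrocytes. *Sirt2* had 139 ± 8.92 normalised RPM (SD, n = 10) in LSD and 166 ± 19.0 (SD, n = 10) in saline, with 10 of 10 LSD-treated rats below the saline median, and it passed with the span offsets as well (-0.25, adjusted p = 0.0129). *Itpr2* did not (0.14, adjusted p = 0.160). In this list 11 of 13 genes had a negative log2 fold change, with a median of -0.12. *Neu4* had 0 reads in every rat.

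Of 23 tested transcription factors of the lineage, 2 were higher and 2 lower, beside 6.48% higher and 8.54% lower among all genes tested. *Zeb2*, which encodes a zinc-finger repressor that promotes myelination, had 138 ± 8.29 normalised RPM (SD, n = 10) in LSD and 113 ± 13.0 (SD, n = 10) in saline (log2 fold change 0.28, adjusted p = 0.00769). *Sox6*, whose product holds precursors back from differentiating, rose by 0.29 (adjusted p = 0.0254). *Sox2*, shared with astrocytes, had -0.29 (adjusted p = 0.00992, all from edgeR), with 10 of 10 LSD-treated rats below the saline median. With the span offsets, *Zeb2* (0.18, adjusted p = 0.0190) passed and *Sox6* (0.15, adjusted p = 0.147) and *Sox2* (-0.18, adjusted p = 0.0808) did not. *Sox8*, the close relative of *Sox10* in the same lineage, had 59.5 ± 8.42 normalised RPM (SD, n = 10) in LSD and 63.1 ± 4.85 (SD, n = 10) in saline (log2 fold change -0.08, adjusted p = 0.460). *Sox9*, the member of that subfamily used by astrocytes, had -0.06 (adjusted p = 0.638, both from edgeR). *Olig3* had 1 read in all 20 rats together and was not tested.

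The ligand side of PDGF signalling moved at 1 point. *Pdgfa*, which encodes the A chain that activates PDGFRA, had 58.5 ± 3.26 normalised RPM (SD, n = 10) in LSD and 69.7 ± 7.93 (SD, n = 10) in saline (log2 fold change -0.25, standard error 0.058, adjusted p = 0.00903 from edgeR). All 10 LSD-treated rats were below the saline median, and the value was -0.24 with the span offsets (adjusted p = 0.0134) and -0.29 with the striatal covariate (adjusted p = 0.0105). *Pdgfb* (-0.06, adjusted p = 0.651), *Pdgfc* (0.04, adjusted p = 0.783) and *Pdgfd* (0.17, adjusted p = 0.502) did not pass, nor did *Pdgfrb*, the receptor gene of pericytes (-0.23, adjusted p = 0.110, all from edgeR). With the striatal covariate *Pdgfrb* did pass (-0.33, adjusted p = 0.0298 from edgeR). Among 29 tested genes for signals that act on precursors, 4 were higher and 3 lower, beside 6.48% and 8.54% of all genes tested. The higher genes with the smallest p-values were *Lifr*, a cytokine receptor gene (log2 fold change 0.44, adjusted p = 0.00836), the neuregulin receptor gene *Erbb4* (0.55, adjusted p = 0.0100) and the BMP receptor gene *Bmpr2* (0.35, adjusted p = 0.0106). Besides *Pdgfa*, the lower ones were *Thra*, the thyroid hormone receptor gene (-0.22, adjusted p = 0.0152), and *Fgfr1*, a fibroblast growth factor receptor gene (-0.21, adjusted p = 0.0362, all from edgeR). These 6 genes passed with the span offsets too, with adjusted p-values from 0.0130 to 0.0182. Neurons and astrocytes of cortex also make many of these genes, among them *Pdgfa*, *Erbb4* and *Thra*.

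At the far end of the lineage, 6 of 24 myelin and mature oligodendrocyte genes passed the threshold as lower, beside 8.54% of all genes tested. All 24 had a negative log2 fold change, with a median of -0.34 beside 0.00 for all genes tested. This direction did not hold with the striatal covariate, where 14 of the 24 were above 0 and the median was 0.06. *Cldn11*, which encodes the tight junction protein of myelin, had 160.0 ± 36.3 normalised RPM (SD, n = 10) in LSD and 221 ± 37.2 (SD, n = 10) in saline (log2 fold change -0.46, adjusted p = 0.0175). *Gsn*, which encodes the actin-severing protein gelsolin, had -0.34 (adjusted p = 0.0322, both from edgeR). *Enpp2*, the autotaxin gene of maturing oligodendrocytes, had -0.09 (adjusted p = 0.558). These genes vary together from rat to rat, and with 1 rat left out at a time the count of lower genes ran from 2 to 8. It was 2 or 3 without any one of LSD rats 2, 3, 6, 7, 8 and 10 and saline rats 1, 3, 8 and 9. Without saline rats 8 and 9, 20 of the 24 genes were below 0, with a median of -0.195. Of the 24 genes, 0 were called lower without these rats or with the striatal covariate, where *Sox10* still passed. The log2 fold change of *Sox10* lay within the range of the 24 in both fits. Without these rats it was -0.34, and theirs ran from -0.455 to 0.099. With the covariate it was -0.26, and theirs ran from -0.28 to 0.51. Whether the difference of *Sox10* differs from that of the myelin genes was not tested.

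**Figure D5:**
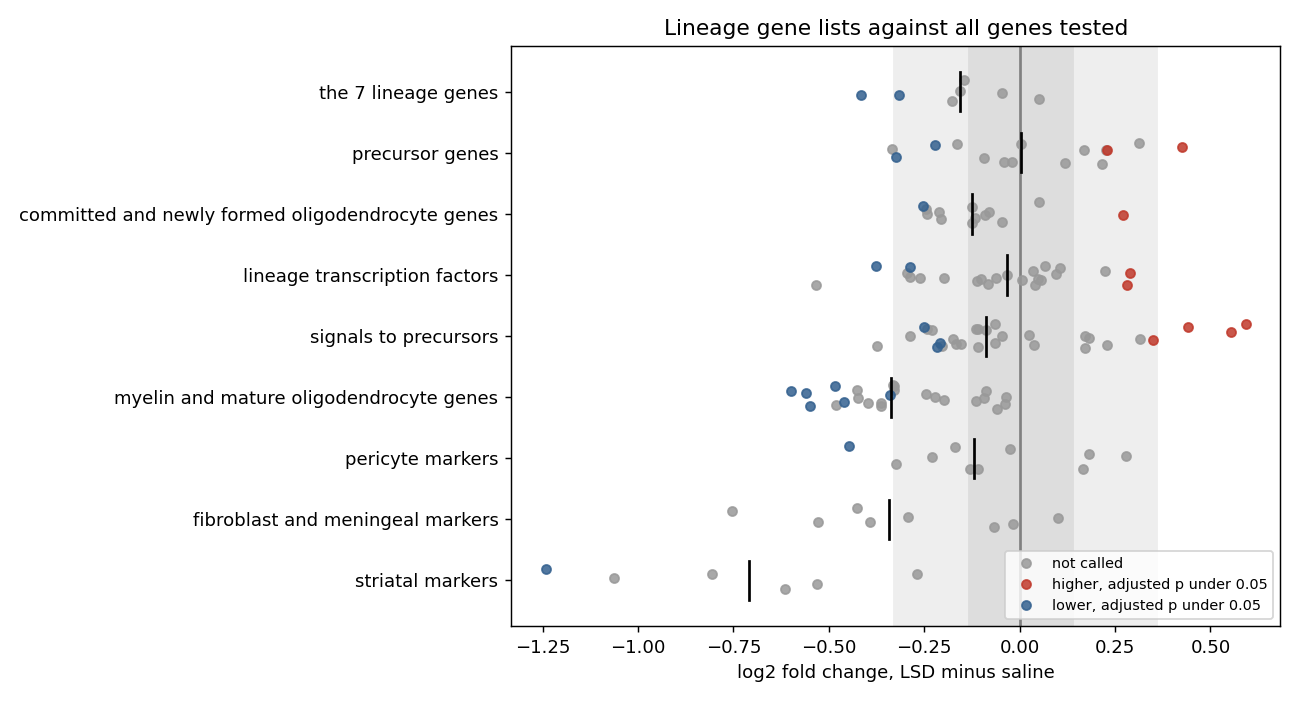
Log2 fold change of LSD minus saline (x axis) for each tested gene of the lineage lists and of 3 marker lists (pericyte, fibroblast and meningeal, striatal). Points are genes, coloured by their call, black ticks are list medians, the grey line is the median of all 16605 genes tested and the shaded bands hold the middle 50% (dark) and 90% (light) of them. All 24 myelin genes lie below 0 in this comparison (10 of 24 with the striatal covariate), while the precursor genes spread from -0.33 to 0.43 around a median of 0.00.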

How the data were processed

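Poly(A) RNA from the mPFC of 20 rats, 10 per group, was sequenced as 1 library per rat, and groups were taken from the sample labels. The deposited values are raw read counts per gene, which the authors made with HISAT2 on rn6 and HTSeq, with no normalisation. A table of 31038 genes was used, and 5 entries without a gene name, holding 25.5% to 29% of each library's reads, were left out. Whether reads shared by close paralogues were counted is not given in the sources used here.

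Genes reaching 5 reads in 10 or more rats were tested with the quasi-likelihood F test of edgeR (version 4.0.16, R 4.3.3) after TMM scaling, with Benjamini-Hochberg adjustment over 16605 genes and a threshold of 0.05. 95% intervals used 18 residual degrees of freedom. Ratios, correlations and motif counts were computed in Python 3.11.15 with scipy 1.17.1 and pandas 2.3.3, on log2(normalised RPM + 1) for correlations. Gene spans and promoters came from RefSeq's annotation of GRCr8, used for span and sequence only. Alternatives were RLE factors, library totals, no filter, filterByExpr, DESeq2 1.42.0, the replicate number as a block, gene span offsets (50 bins, smoothed over 5, centred in each rat), 1 surrogate variable (sva 3.50.0), equal depth and each rat left out. The marker covariates, the omission of 2 saline rats and the ratio tests were added after the data were seen. The edgeR fit and the span offsets were tested on simulated data.

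The 7 genes and all lists were chosen with earlier results of these data known. Besides the 7, the text names PDGF ligands and *Pdgfrb*, the relatives *Olig3*, *Sox8*, *Sox9* and *Enpp2*, up to 3 called genes of smallest p per lineage list and direction, and the 3 genes most correlated with each member. Some genes under this rule are not reported here. *Kcnj8*, *Gpr6*, *Neu4* and *Megf11* were named after their values were seen. Of the other marker lists, 1 of 9 astrocyte genes was higher and 1 lower, 1 of 9 neuron genes was higher, and 0 of 8 microglia, 0 of 6 endothelial and 0 of 4 choroid plexus genes passed by edgeR.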

Additional observations from a re-analysis of the deposited data

Results flagged for a closer look

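In groups of 10 rats, a value was singled out where its gap to the nearest other rat, divided by the group's range, was above Dixon's critical value at the 95% level. Chance gives this in about 1 in 20 groups, and 8 values were singled out in 82 groups examined. *Pdgfra* was low in LSD rat 3, at 56.8 normalised RPM with the next rat at 70.8, and high in saline rat 10, at 109 with the next at 78.2. *Cspg4* was low in LSD rat 10, at 27.4 with the next rat at 40.4. In the same rat the log2 ratio of *Pdgfra* to *Cspg4* was 1.56, with the next rat at 1.02. *Olig1* was high in LSD rat 9, at 161 with the next at 127.

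Among summed marker levels in normalised RPM, LSD rat 9 also had the highest striatal markers of its group, 204 with the next rat at 145. LSD rat 3, low for *Pdgfra*, had 521 for the microglia markers, with the next rat at 353. Saline rat 10, high for *Pdgfra*, had 12.2 for the choroid plexus markers, with the next at 5.62. The part of the microglia and choroid plexus marker levels in the values of the lineage genes was not tested. With the striatal marker level as a covariate, *Olig1* had a log2 fold change of -0.16 beside -0.32 without it.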

How the results depend on the processing

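*Sox10* was called lower under every alternative run, and the log2 ratio of *Sox10* to *Gpr17* kept its call under those run for it (the block, span offsets with and without the block, equal depth, without saline rats 8 and 9, and each rat left out). Leaving out 1 rat gave -0.45 to -0.37 for *Sox10*, -0.37 to -0.27 for *Olig1*, -0.19 to -0.10 for *Olig2*, 0.01 to 0.13 for *Pdgfra*, -0.21 to -0.09 for *Cspg4*, -0.07 to -0.003 for *Gpr17* and -0.25 to -0.07 (-0.065) for *Enpp6*. For the ratios it gave -0.40 to -0.33 for *Sox10* to *Gpr17*, 0.24 to 0.30 for *Olig2* to *Sox10* and 0.42 to 0.55 for *Pdgfra* to *Sox10*. *Olig1* lost its call with library totals (-0.27), no filter (-0.30), span offsets (-0.21, and -0.20 with the replicate block), without saline rats 8 and 9 (-0.25) and with the striatal covariate (-0.16). Each of these left 1 of the 7 genes called lower. *Pdgfra* changed sign with span offsets (-0.0038) and 1 surrogate variable (-0.0077), *Gpr17* with span offsets (0.0282, and 0.0327 with the block) and *Enpp6* with the striatal (0.17) and myelin (0.0919) covariates, none of them called. Without saline rats 8 and 9, the *Olig2* to *Sox10* ratio (0.26) and the *Pdgfra* to *Sox10* ratio (0.36) lost their calls, the latter also with span offsets (0.35, with or without the block). The cause of these changes was not tested.

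The numbers were not taken to pair the rats, and the sample labels do not say that they do. Of the same-numbered pairs, 6 of 10 had a correlation of deviations over 0.1 (from -0.26 to 0.47, mean 0.145). Among the 20 rats, 3 correlated best with their own number. No chance level was computed for these values, so they cannot decide whether the numbers pair rats. The replicate block gave 1355 genes higher and 1606 lower, *Sox10* at -0.41 (adjusted p = 0.0105) and *Olig1* at -0.31 (adjusted p = 0.0235, both from edgeR).

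Over all genes, span offsets left 547 higher, the myelin covariate gave 1726 higher, and library totals and no filter gave 858 and 836 lower, beside 1076 higher and 1418 lower as reported. Leaving out 1 rat gave 659 to 1681 higher and 907 to 1867 lower. LSD rat 8 gave the lowest of both, saline rat 4 gave 705 higher and saline rat 2 the 1681. Scaling by totals moved the median log2 fold change to 0.05.

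Counts in the lists, as reported and then under alternatives, were as follows. Changes that were smaller in proportion are left out of this account. Among those left out, the lower myelin genes were 7 with DESeq2 and 4 with the replicate block or span offsets. The higher signal genes were 6 with the replicate block, and the lower precursor genes 3 with DESeq2. Precursor genes had 2 higher, which became 0 with span offsets (with or without the block) or the striatal covariate and 1 at equal depth. Their 2 lower became 1 with RLE factors, filterByExpr, equal depth or the striatal covariate. They became 0 with totals, no filter or without saline rats 8 and 9. With span offsets (with or without the block) 1 gene of the list was lower. Without the block this was *Megf11* (log2 fold change -0.23, adjusted p = 0.0234 from edgeR), which was not called in the comparison as reported. Committed genes had 1 higher, which became 0 with span offsets (with or without the block) or the striatal covariate, and 1 lower, which became 3 with span offsets and the block and 2 with 1 surrogate variable. Transcription factors had 2 higher, which became 1 with span offsets (with or without the block), the striatal covariate or without saline rats 8 and 9, and 2 lower, which became 4 with DESeq2, 1 with span offsets and 0 with span offsets and the block. Signal genes had 3 lower, which became 5 with either covariate. Myelin genes had 6 lower, which became 2 with totals or no filter, 3 at equal depth, 12 with 1 surrogate variable and 0 with the striatal covariate or without saline rats 8 and 9, and 0 higher, which became 5 with the myelin covariate.

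Leaving out 1 rat gave 0 higher and 1 to 2 lower members, 1 to 3 higher and 0 to 3 lower precursor genes, 1 higher and 1 to 2 lower committed genes, 1 to 3 higher and 2 to 4 lower transcription factors, 4 to 5 higher and 2 to 4 lower signal genes, and 0 higher and 2 to 8 lower myelin genes. *Enpp6* had the fewest reads of the 7 genes, 18 to 153 per rat, and the widest standard error.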
